A study of Rattus norvegicus with 24 samples.

Results

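The genes of amino acid breakdown and of the methionine cycle were examined in the liver of rats fed rotenone, a toxin of plants that inhibits complex I, the entry point of NADH electrons to respiration in mitochondria. The set held 44 genes. They were chosen by name as enzymes of these pathways, with earlier results of these data known but with no measured value in the rule, and all 44 were found among the 22093 genes that the array represents by symbol. Each gene was read from 1 transcript cluster, a set of probes on the array, the one with the highest mean over the 24 arrays where a symbol had several. Rotenone rats ate a diet with 400 ppm rotenone over 1, 3 or 14 days, and control rats ate untreated food over the same time. All animals were male Wistar rats (RccHan:WIST) aged 7-8 weeks when assigned to the groups, so age rose with the day of necropsy. From each of the 6 groups 4 livers were measured, 1 array per liver. The rats were caged 2 or 3 together, and which of them shared a cage is not given in the sources used here. Levels are log2 of the deposited intensity plus 1, on which a difference of 1 is a 2-fold change. Differences are rotenone minus control of the same day with the moderated standard error after ±, and a gene is called up- or down-regulated, higher or lower, only where limma gave a p under 0.05 after adjustment over the 68842 clusters on the array.

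The liver takes up amino acids from portal blood and is the main site where most of them are degraded. Aminotransferases, dehydratases and oxygenases remove or open the amino acid, the nitrogen goes to urea, and the carbon enters the citric acid cycle, glucose or ketone bodies. Many of the steps for proline, glycine and the branched-chain amino acids take place inside mitochondria and hand their electrons to the respiratory chain, directly or through NADH. In the methionine cycle, methionine is converted to S-adenosylmethionine, the methyl donor of the cell, and then to homocysteine, which is methylated back to methionine or passed through transsulfuration to cysteine and taurine.

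The whole data set was checked first. Array medians of the intensity ranged between 28.9 and 35.5. Arrays of a group correlated at 0.990 to 0.996 over the clusters with a mean at or above the median of all clusters. The median negative control probe set had a log2 intensity of 5.05. None of the 44 genes lay below it throughout, and only Bcat2 (mean 5.50 over the 24 arrays) came close. The number of arrays limits the precision. A principal component of the same brighter clusters held 29.5% of their variance. On it the rotenone livers of day 14 had scores of 48.76 to 56.67 apart from replicate 1, which scored 27.06. That liver was the farthest from its group mean for 15 of the 44 genes. This count was not particular to it, as replicate 4 of rotenone day 1 also had 15 and replicate 4 of rotenone day 3 had 16. The 13 of 14 hepatocyte markers that were found had summed intensities of 6145503 to 6306878 in rotenone and 5997160 to 6255882 in control livers of day 1, and of 5858957 to 6168598 in rotenone and 6052759 to 6179433 in control livers of day 3. On day 14 the rotenone livers (5759516 to 6039775) all lay below the control livers (6106765 to 6200967), with 1 marker lower, and no hepatocyte marker lay below the negative control median in any group. Of the 16 macrophage markers 4 were higher on day 1 (sums of 32188 to 46426 in rotenone livers, 19312 to 37153 in control livers) and 4 were lower on day 14 (14941 to 22644 in rotenone livers, 25710 to 36617 in control livers). Of 13 markers of sinusoidal endothelium, 6 were higher on day 1 (34638 to 62245 in rotenone livers, 29345 to 38352 in control livers). Of 15 markers of stellate cells and fibroblasts, 9 were lower on day 3 (10641 to 17280 in rotenone livers, 18699 to 22438 in control livers) and 6 on day 14 (11361 to 16921 in rotenone livers, 17464 to 20317 in control livers). Of the 10 erythroid genes found, 4 were lower on day 3 and 5 on day 14, when the sums were 6768 to 144267 in rotenone livers and 258917 to 386399 in control livers. Among all genes, 5.69% were higher and 3.73% lower on day 1, 3.53% and 3.11% on day 3, and 5.98% and 3.33% on day 14. At most 1 marker of any of these lists lay below the negative control median in a group. The part of these other cells in the results below was not tested. In whole liver, fewer cells of a type and less RNA per cell cannot be told apart.

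After 1 day of rotenone, nearly all genes of the set that passed the test were down-regulated. Of the 44 genes 11 were lower, 1 was higher and 32 did not pass, while among all 22093 genes 3.73% were lower and 5.69% were higher (9.41% in either direction). Among the 14872 genes at or above the median negative control, 5.28% were lower and 8.43% higher (13.7% in either direction). The lower genes were Thnsl2, Gnmt, Prodh, Cth, Aldh4a1, Ivd, Bckdhb, Shmt2, Bhmt, Mccc2 and Amt, and the higher one was Amdhd1. The median difference of the 44 genes was -0.27, against -0.03 over all genes, and 9 of the 12 changes reached 1.8-fold. In 15 genes all 4 rotenone livers lay below all 4 control livers and in 3 above them, against 8.38% and 10.4% of all genes (18.8% in all).

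After 3 days the balance lay the other way. Only Amt was still lower, while Amdhd1, Gpt, Ftcd, Pcca and Hpd were higher and 38 genes did not pass. Over all genes, 3.11% were lower and 3.53% higher (6.64% in either direction), and among genes at or above the median negative control 4.38% and 5.13% (9.51% in either direction). The median difference of the set was 0.22, against 0.03 over all genes. The rotenone livers lay entirely above the control livers for 8 genes and entirely below them for 3, against 9.27% and 7.41% of all genes (16.7% in all). Without replicate 1 of the day 3 control livers 3 genes were higher, and without replicate 4 of these, or without replicate 1 or 2 of the day 3 rotenone livers, only 2 were. Amt was not called without rotenone replicate 1 or 2.

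After 14 days 9 genes were higher, namely Amdhd1, Tdo2, Shmt1, Ftcd, Pcca, Gpt2, Mat1a, Bckdha and Hpd, and 4 were lower, namely Kynu, Ivd, Shmt2 and Amt, while 31 did not pass. The background was 5.98% higher and 3.33% lower (9.31% in either direction), or 8.75% and 4.85% (13.6% in either direction) among genes at or above the median negative control. The median difference was 0.16, against 0.01 over all genes. Rotenone livers lay entirely above control livers for 11 genes and entirely below for 4, against 9.47% and 5.95% of all genes (15.4% in all). The higher genes numbered 5 without replicate 3 of the control livers or replicate 4 of the rotenone livers, and 2, Amdhd1 and Shmt1, without rotenone replicate 2. The lower genes numbered 2 without control replicate 4 or rotenone replicate 3 or 4, and 7 without rotenone replicate 1, the liver apart on the principal component. Across the 3 days 22 genes were not called on any day, 15 on 1 day, 5 on 2 days, and 2 on every day, Amdhd1 as higher and Amt as lower.

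**Figure D1:**
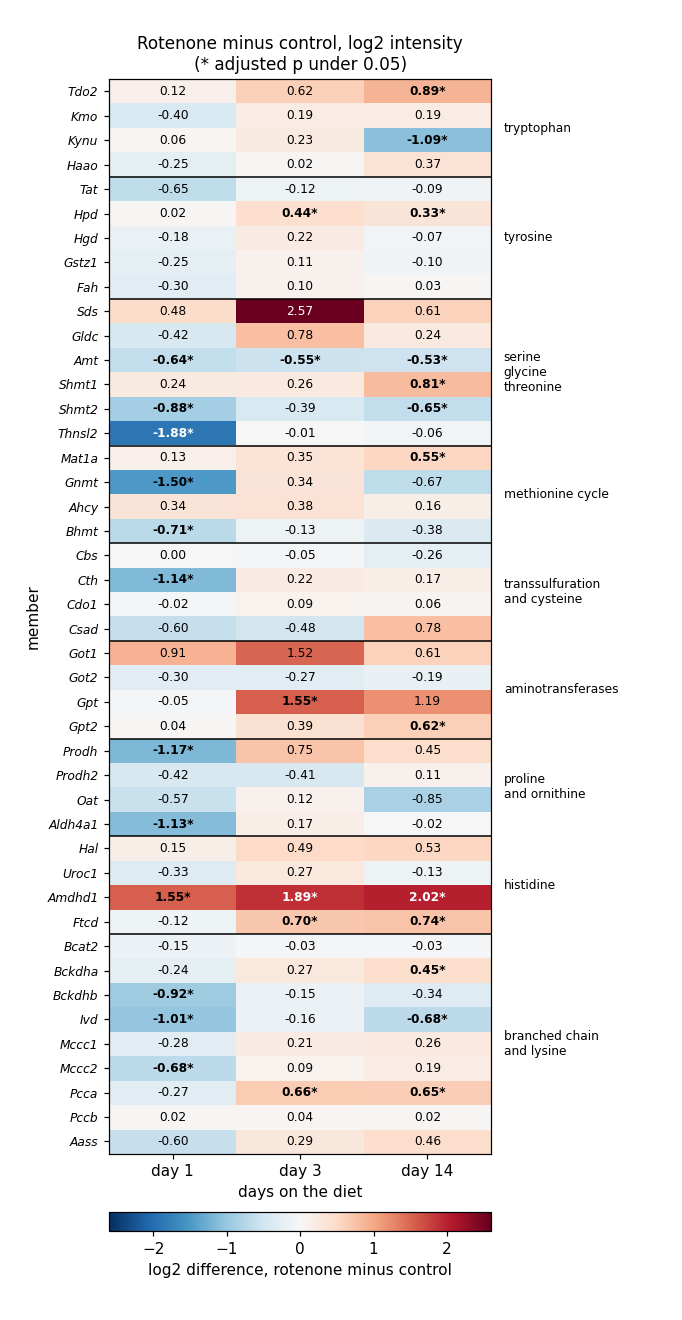
Rotenone minus control in log2 intensity for all 44 genes, grouped by the amino acid they break down, with 1 column per day, red for higher and blue for lower. Bold values with an asterisk passed the adjusted p of 0.05. On day 1 the called genes were nearly all lower (11 lower, 1 higher), and on day 14 most of them were higher (9 higher, 4 lower).

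The 4 genes with the smallest adjusted p on day 1 were Thnsl2, Aldh4a1, Ivd and Cth. Their promoters are shown for that reason, and a link between the promoters and the falls was not tested. Each runs 5′ to 3′ from 250 bases before to 50 bases after the annotated start in the RefSeq sequence of build GRCr8, and capitals mark the CCAAT box, a common promoter element, on either strand (CCAAT or ATTGG). Thnsl2 lies at chr4:104690297-104690596 on the minus strand, Aldh4a1 at chr5:157162939-157163238 on the plus strand, Ivd at chr3:126305334-126305633 on the plus strand and Cth at chr2:249661017-249661316 on the minus strand.
Thnsl2: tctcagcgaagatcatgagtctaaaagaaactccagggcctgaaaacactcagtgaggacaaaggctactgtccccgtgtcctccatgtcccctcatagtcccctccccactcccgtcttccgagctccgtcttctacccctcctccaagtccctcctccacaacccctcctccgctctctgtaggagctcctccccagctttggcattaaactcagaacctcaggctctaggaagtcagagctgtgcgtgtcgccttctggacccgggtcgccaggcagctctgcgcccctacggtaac
Aldh4a1: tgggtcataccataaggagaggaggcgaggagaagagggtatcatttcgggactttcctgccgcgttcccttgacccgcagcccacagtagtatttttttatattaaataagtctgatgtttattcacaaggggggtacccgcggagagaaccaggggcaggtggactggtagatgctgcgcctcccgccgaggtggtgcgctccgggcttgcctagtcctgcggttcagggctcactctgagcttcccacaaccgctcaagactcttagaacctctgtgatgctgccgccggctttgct
Ivd: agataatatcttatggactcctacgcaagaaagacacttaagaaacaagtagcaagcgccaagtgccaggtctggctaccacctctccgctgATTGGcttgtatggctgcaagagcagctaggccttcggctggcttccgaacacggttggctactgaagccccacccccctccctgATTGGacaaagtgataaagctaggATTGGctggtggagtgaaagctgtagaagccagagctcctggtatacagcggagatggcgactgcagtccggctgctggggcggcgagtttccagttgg
Cth: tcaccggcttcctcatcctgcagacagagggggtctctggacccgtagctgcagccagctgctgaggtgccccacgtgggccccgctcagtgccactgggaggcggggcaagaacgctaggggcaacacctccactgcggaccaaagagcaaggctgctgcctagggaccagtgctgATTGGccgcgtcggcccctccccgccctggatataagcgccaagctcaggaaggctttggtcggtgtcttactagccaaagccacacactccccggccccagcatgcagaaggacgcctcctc
Cth has 1 CCAAT box, 73 bases before the start. Ivd has 3, at 158, 73 and 49 bases before it, and the windows of Thnsl2 and Aldh4a1 hold none.

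Promoters were matched for 36 of the 44 genes. Those without a match were Sds, Cdo1, Gpt, Prodh, Hal, Amdhd1, Bckdha and Mccc2. The CCAAT box was found in 21 of the 36 (58.3%), against 37.5% of all 33365 distinct promoter sequences of the same length. Each gene of the set entered with 1 promoter, whereas all promoters were not limited to 1 per gene or to genes on the array. It was in 6 of the 9 matched genes that were lower on day 1 and in 3 of the 7 matched genes that were higher on day 3 or 14. Searched on both strands, the core of the glucocorticoid receptor site, AGAACA, was in 4 of the 36 (11.1%, against 20.6% of all promoters), the core of the cAMP response element, TGACG, in 7 (19.4% against 21.2%), and the antioxidant response element, TGACNNNGC, in 6 (16.7% against 12.1%). The full cAMP element TGACGTCA, which contains TGACG, was in 0 of the 36 and in 1.83% of all promoters. The C/EBP palindrome TTGCGCAA (0.171% of all), the FOXO core TGTTTAC (3.78%) and the amino acid response element TGATGNAAT (1.09%) were in 0 of the 36 as well. These counts describe letters in a short window and were not tested.

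Among the genes of tryptophan breakdown, the first enzyme was higher and a later one was lower on day 14, and none passed before. Tdo2, the tryptophan dioxygenase that opens the pathway, had log2 intensities of 18.24, 18.52, 18.10 and 18.40 in rotenone livers of day 14, against 17.59, 17.70, 17.20 and 17.22 in control livers. It was 1.85-fold higher (0.89 ± 0.26, adjusted p = 0.0493) without overlap. The call sits at the threshold and was lost in 20 of 34 alternative fits. Kynu, the kynureninase that splits kynurenines towards NAD synthesis, had 15.61, 15.04, 15.05 and 13.81 in rotenone livers of day 14, against 15.74, 16.33, 15.67 and 16.14 in control livers. It was 2.13-fold lower (-1.09 ± 0.26, adjusted p = 0.0142), and replicate 4 of the rotenone livers lay well below the other 3. The call was lost in 3 of 34 alternative fits, with quantile normalization, with only the 8 arrays of day 14, and without control replicate 2. On days 1 and 3 Kynu differed by 0.06 ± 0.26 and 0.23 ± 0.26. Kmo, the kynurenine monooxygenase between these steps, had 14.11 ± 0.20 in rotenone livers and 14.51 ± 0.12 in control livers of day 1 (SD, n = 4 each), a difference of -0.40 ± 0.12 that narrowly missed the threshold (adjusted p = 0.0516) although the groups did not overlap. Haao, the next dioxygenase after Kynu, differed by -0.25 to 0.37 over the 3 days and did not pass.

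The tyrosine pathway has its control step at Tat, the aminotransferase, and its later steps form acetoacetate and fumarate. Hpd, the dioxygenase that follows Tat, was the gene of this pathway that was up-regulated. Its log2 intensities were 18.76, 18.71, 18.53 and 18.53 in rotenone livers of day 3, against 18.24, 18.21, 18.17 and 18.16 in control livers. The difference was small but larger than the spread between livers (1.35-fold higher, 0.44 ± 0.09, adjusted p = 0.00418). On day 14 Hpd had 18.68, 18.85, 18.77 and 18.97 in rotenone livers and 18.49, 18.57, 18.41 and 18.46 in control livers (1.26-fold higher, 0.33 ± 0.09, adjusted p = 0.0256). Again no control liver reached a rotenone liver. Tat itself varied widely within groups, with 16.00 ± 0.67 in rotenone and 16.65 ± 0.62 in control livers of day 1 (SD, n = 4 each), and its differences of -0.65, -0.12 and -0.09 had standard errors of 0.45. For Fah, which completes the pathway, the rotenone livers of day 1 were all below the control livers (15.71 ± 0.13 in rotenone and 16.02 ± 0.09 in control livers, SD, n = 4 each), and the difference of -0.30 ± 0.09 did not pass (adjusted p = 0.0699). Hgd and Gstz1, the steps between Hpd and Fah, differed by -0.25 to 0.22 and did not pass on any day. On day 3 the rotenone livers of Hgd (15.59 to 15.75) lay above its control livers (15.37 to 15.47).

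For serine, glycine and threonine, 3 of the 6 genes were down-regulated on day 1. Thnsl2, a relative of bacterial threonine synthase, gave the largest fitted fall of the 44 genes. It had 7.51, 8.07, 7.72 and 8.49 in rotenone livers of day 1, against 9.96, 9.87, 9.81 and 9.67 in control livers, and was 3.68-fold lower (-1.88 ± 0.18, adjusted p = 2.13e-06). The groups were far apart on day 1 but lay together later, at 9.87 ± 0.09 in rotenone and 9.88 ± 0.20 in control livers of day 3 and at 9.73 ± 0.15 in rotenone and 9.79 ± 0.41 in control livers of day 14 (SD, n = 4 each). The glycine cleavage system, which splits glycine in mitochondria, was represented by Gldc and Amt. Amt, its T protein, was lower on every day. It had 10.29, 10.27, 10.34 and 10.61 in rotenone livers of day 1, against 11.08, 10.81, 11.13 and 11.06 in control livers (1.56-fold lower, -0.64 ± 0.13, adjusted p = 0.00301). On day 3 the values were 10.34, 10.33, 10.79 and 10.30 in rotenone livers and 11.04, 10.92, 10.94 and 11.08 in control livers (-0.55 ± 0.13, adjusted p = 0.0137). On day 14 they were 10.68, 10.47, 10.13 and 10.27 in rotenone livers and 10.81, 10.99, 10.84 and 11.04 in control livers (-0.53 ± 0.13, adjusted p = 0.0145). No rotenone liver reached a control liver on any of the days. Gldc, its P protein, differed by -0.42 ± 0.27, 0.78 ± 0.27 and 0.24 ± 0.27 on days 1, 3 and 14 and did not pass.

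The serine hydroxymethyltransferases, which move a carbon unit between serine and glycine, had opposite calls in the cytosol and in mitochondria on day 14. Shmt1, the cytosolic form, had 12.39, 12.75, 12.59 and 12.89 in rotenone livers of day 14, against 12.00, 11.81, 11.71 and 11.85 in control livers. It was 1.76-fold higher (0.81 ± 0.12, adjusted p = 0.000258), while its differences of 0.24 ± 0.12 on day 1, without overlap, and 0.26 ± 0.12 on day 3 did not pass. Shmt2, the mitochondrial form, had 12.02, 12.71, 12.62 and 12.66 in rotenone livers of day 1, against 13.28, 13.35, 13.42 and 13.45 in control livers (1.83-fold lower, -0.88 ± 0.18, adjusted p = 0.00439). On day 14 it had 12.91, 12.67, 12.18 and 12.25 in rotenone livers and 13.38, 12.78, 12.97 and 13.49 in control livers. That fall (-0.65 ± 0.18, adjusted p = 0.0398) came with overlapping groups and was lost in 8 of 34 alternative fits. Sds, the serine dehydratase that makes pyruvate from serine, had the widest spread of the set, with a within-group SD of 1.24. It had 8.73, 11.29, 9.22 and 8.52 in rotenone livers of day 3, against 6.32, 8.35, 7.09 and 5.71 in control livers. Although the groups did not overlap, the difference of 2.57 ± 0.79 did not pass (adjusted p = 0.0858, 95% confidence interval 0.93 to 4.22). On day 14 the rotenone livers of Sds split, with replicates 1 and 2 at 10.29 and 10.93 and replicates 3 and 4 at 6.24 and 6.90, against 7.16 to 8.65 in control livers.

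In the methionine cycle Gnmt and Bhmt were lower on day 1 and Mat1a was higher on day 14. Mat1a, the liver enzyme that makes S-adenosylmethionine, had 18.53, 18.89, 18.47 and 18.77 in rotenone livers of day 14, against 18.09, 18.30, 18.35 and 17.71 in control livers (1.46-fold higher, 0.55 ± 0.13, adjusted p = 0.015). Its differences on days 1 and 3 were 0.13 ± 0.13 and 0.35 ± 0.13 and did not pass, although on day 3 the rotenone livers (18.29 to 18.55) lay above the control livers (17.90 to 18.20). Gnmt, which uses up S-adenosylmethionine by methylating glycine, had 13.89, 14.33, 14.37 and 14.28 in rotenone livers of day 1, against 16.67, 15.52, 14.60 and 16.06 in control livers. It was 2.82-fold lower (-1.50 ± 0.43, adjusted p = 0.0493) without overlap, but the control livers were widely spread and the call was lost in 24 of 34 alternative fits, with adjusted p up to 0.192. On day 3 the spread lay in the rotenone livers, at 14.03 to 16.83 against 15.10 to 15.41 in control livers. Ahcy, which splits adenosylhomocysteine, differed by 0.34 ± 0.16, 0.38 ± 0.16 and 0.16 ± 0.16 and did not pass. Bhmt, which returns homocysteine to methionine with betaine, had 18.46, 18.79, 18.77 and 19.05 in rotenone livers of day 1, against 19.49, 19.48, 19.47 and 19.47 in control livers (1.63-fold lower, -0.71 ± 0.11, adjusted p = 0.000512). Its control values lay close to the top of the intensity scale and next to each other. On day 14 Bhmt was at 19.09 ± 0.19 in rotenone livers and 19.47 ± 0.01 in control livers (SD, n = 4 each), again without overlap, and did not pass (-0.38 ± 0.11, adjusted p = 0.0601).

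Along transsulfuration, the branch that carries homocysteine to cysteine, only the second enzyme was called. Cth, the cystathionine gamma-lyase that releases cysteine, had 17.72, 17.93, 17.51 and 18.47 in rotenone livers of day 1, against 19.01, 19.05, 18.82 and 19.32 in control livers. It was 2.21-fold lower (-1.14 ± 0.16, adjusted p = 9.3e-05). The groups overlapped on day 3 (18.96 ± 0.13 in rotenone and 18.74 ± 0.24 in control livers, SD, n = 4 each). On day 14 the rotenone livers lay just above the control livers (19.20 ± 0.03 in rotenone and 19.03 ± 0.13 in control livers), and the difference of 0.17 ± 0.16 did not pass. Cbs, the enzyme before it, differed by 0.00 ± 0.16, -0.05 ± 0.16 and -0.26 ± 0.16 on days 1, 3 and 14. Cdo1, the cysteine dioxygenase, was the steadiest gene of the set with a within-group SD of 0.08, and its differences of -0.02, 0.09 and 0.06 had 95% confidence intervals that ran from -0.19 to 0.26 in all. Csad, which leads on to taurine, differed by -0.60 ± 0.30, -0.48 ± 0.30 and 0.78 ± 0.30. On day 14 its rotenone livers (14.44 to 15.17) lay above its control livers (13.57 to 14.24), but the difference did not pass (adjusted p = 0.148).

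**Figure D2:**
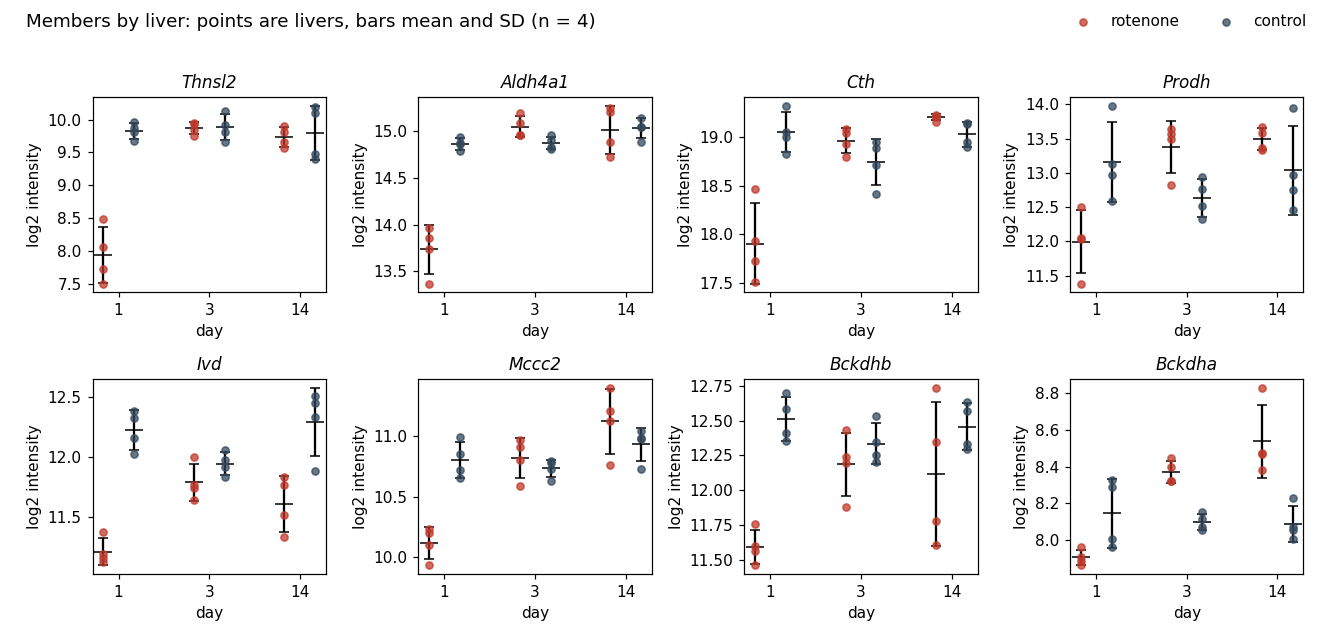
Log2 intensity of every liver on days 1, 3 and 14 for Thnsl2, Aldh4a1, Cth, Prodh, Ivd, Mccc2, Bckdhb and Bckdha, rotenone beside control, with mean and SD (n = 4). On day 1 the rotenone livers lie below the control livers for each of these genes, and for Thnsl2 and Aldh4a1 the groups overlap on days 3 and 14, while Cth overlaps on day 3 and its rotenone livers lie just above the control livers on day 14.

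The aminotransferases of aspartate and alanine pass nitrogen between amino acids and the citric acid cycle, and the 2 alanine enzymes were the ones called. Gpt, the cytosolic alanine aminotransferase, had 12.07, 11.77, 11.72 and 10.66 in rotenone livers of day 3, against 10.01, 10.15, 10.67 and 9.19 in control livers. It was 2.93-fold higher (1.55 ± 0.37, adjusted p = 0.0195), and replicate 4 of the rotenone livers lay just within the control range. The call was lost in 6 of 34 alternative fits. On day 14 the rotenone livers of Gpt lay at 11.81 to 12.43 and the control livers at 10.11 to 11.99, and the difference of 1.19 ± 0.37 did not pass (adjusted p = 0.072). Gpt2, the mitochondrial form, had 10.66, 11.07, 10.96 and 11.38 in rotenone livers of day 14, against 10.54, 10.27, 10.28 and 10.51 in control livers (1.54-fold higher, 0.62 ± 0.16, adjusted p = 0.0281). This call of Gpt2 was also lost in 6 of 34 alternative fits. Got1, the cytosolic aspartate aminotransferase, had a within-group SD of 0.78. Its rotenone livers of day 1 (12.54 to 13.12) lay above the control livers (11.76 to 12.26), and its differences of 0.91 ± 0.51, 1.52 ± 0.51 and 0.61 ± 0.51 did not pass (adjusted p = 0.383, 0.119 and 0.639). These errors pool all groups, and the SD was 0.24 and 0.23 in rotenone and control livers of day 1 but 1.47 in rotenone livers of day 14. With only the 8 arrays of day 1 fitted, Got1 passed on that day (adjusted p = 0.0165). Without replicate 3 of the day 14 rotenone livers it passed on day 3 (adjusted p = 0.0382). Got2, the mitochondrial form, differed by -0.30 ± 0.09, -0.27 ± 0.09 and -0.19 ± 0.09, with no overlap on days 1 and 3, and did not pass (adjusted p = 0.0664, 0.139 and 0.285).

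**Figure D3:**
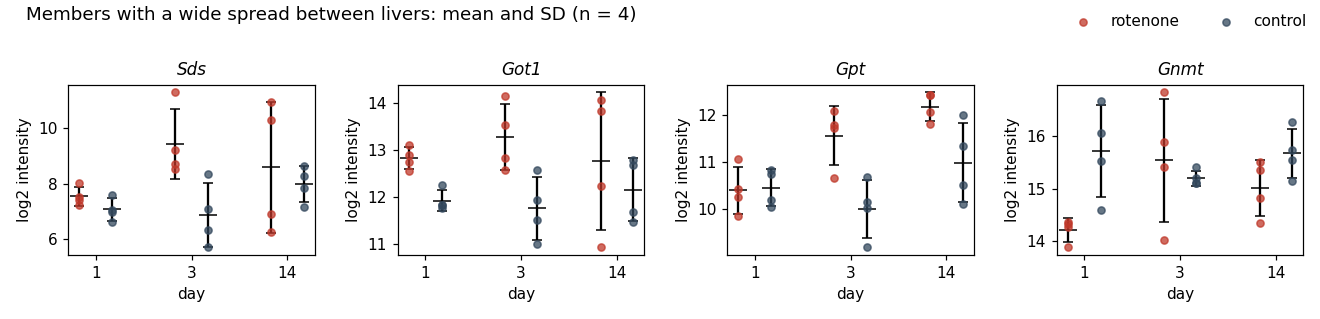
Log2 intensity of every liver on days 1, 3 and 14 for Sds, Got1, Gpt and Gnmt, rotenone beside control, with mean and SD (n = 4). These genes had within-group SDs of 0.57 to 1.24, against a median of 0.23 over the 44 genes, and the rotenone livers of Sds on day 14 range between 6.24 and 10.93.

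Proline is oxidised to glutamate in mitochondria by Prodh and Aldh4a1, and both steps were down-regulated on day 1. Prodh, the proline dehydrogenase, had 11.38, 12.50, 12.05 and 12.03 in rotenone livers of day 1, against 13.97, 13.12, 12.59 and 12.97 in control livers (2.25-fold lower, -1.17 ± 0.29, adjusted p = 0.0205). The call was lost without replicate 1 of the rotenone or of the control livers, and when only the 8 arrays of day 1 were fitted. Aldh4a1, the pyrroline-5-carboxylate dehydrogenase, had 13.37, 13.97, 13.86 and 13.74 in rotenone livers of day 1, against 14.87, 14.87, 14.79 and 14.94 in control livers. It was 2.19-fold lower (-1.13 ± 0.12, adjusted p = 7.19e-06). On day 3 the differences were 0.75 ± 0.29 for Prodh and 0.17 ± 0.12 for Aldh4a1, and on day 14 they were 0.45 ± 0.29 and -0.02 ± 0.12, and none of these passed. A second, dim cluster carries the symbol Aldh4a1 (mean 5.59), which differed by 0.00 on day 1 and did not pass. Prodh2, which acts on hydroxyproline, differed by -0.42 ± 0.17, -0.41 ± 0.17 and 0.11 ± 0.17, and Oat, the ornithine aminotransferase, by -0.57 ± 0.28, 0.12 ± 0.28 and -0.85 ± 0.28. Neither passed, and the Oat value of day 14 (13.97 ± 0.44 in rotenone and 14.81 ± 0.29 in control livers, SD, n = 4 each) had an adjusted p of 0.0886. On day 3 the rotenone livers of Prodh2 all lay below its control livers.

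In histidine breakdown Amdhd1 was up-regulated on every day and Ftcd on days 3 and 14. Amdhd1, the imidazolonepropionase of the third step, had 14.30, 14.38, 15.13 and 14.99 in rotenone livers of day 1, against 11.92, 12.99, 13.90 and 13.79 in control livers (2.93-fold higher, 1.55 ± 0.35, adjusted p = 0.0102). On day 3 it had 14.77, 15.26, 14.42 and 14.89 in rotenone livers and 13.62, 12.85, 12.82 and 12.49 in control livers (3.7-fold higher, 1.89 ± 0.35, adjusted p = 0.00272). On day 14 it had 14.89, 16.12, 16.06 and 15.66 in rotenone livers and 13.49, 13.74, 13.37 and 14.04 in control livers (4.07-fold higher, 2.02 ± 0.35, adjusted p = 0.00117). The groups did not overlap on any day, although the control livers of day 1 were widely spread. Ftcd, which passes the last carbon of histidine to folate, had 13.53, 13.51, 13.41 and 13.57 in rotenone livers of day 3, against 12.66, 13.10, 12.95 and 12.51 in control livers (1.63-fold higher, 0.70 ± 0.18, adjusted p = 0.0278). On day 14 Ftcd had 13.64, 14.20, 13.96 and 13.99 in rotenone livers and 13.13, 13.43, 12.94 and 13.34 in control livers (1.67-fold higher, 0.74 ± 0.18, adjusted p = 0.0165). The rotenone livers lay above the control livers on both days, and on day 1 the difference was -0.12 ± 0.18. Hal, which starts the pathway, differed by 0.15 ± 0.22, 0.49 ± 0.22 and 0.53 ± 0.22, and Uroc1, the urocanate hydratase of the second step, by -0.33 ± 0.19, 0.27 ± 0.19 and -0.13 ± 0.19. Neither passed on any day.

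**Figure D4:**
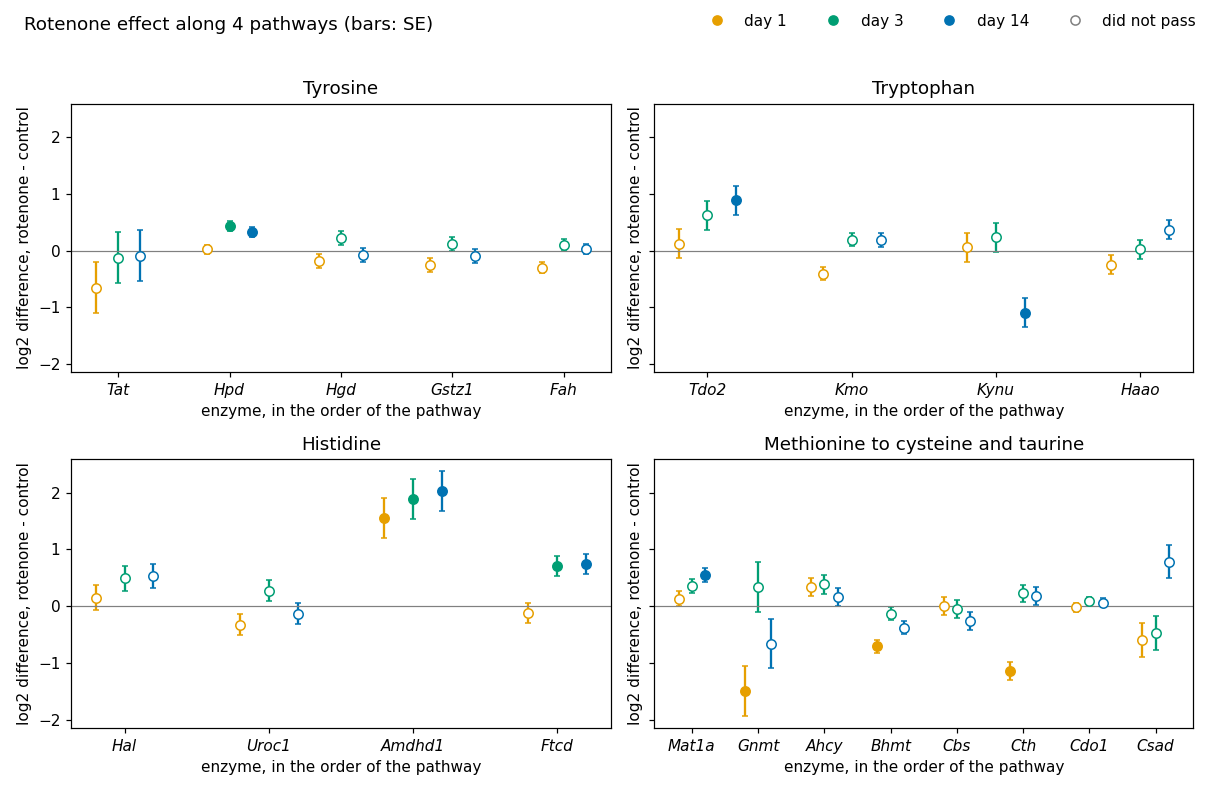
Rotenone minus control in log2 intensity (points, with the moderated standard error) for the steps of tyrosine, tryptophan and histidine breakdown and of methionine metabolism towards cysteine and taurine, on days 1, 3 and 14. Filled points passed the adjusted p of 0.05. In each pathway the called steps stand beside steps that did not pass, as with Amdhd1 (1.55, 1.89 and 2.02) and Uroc1 (-0.33, 0.27 and -0.13).

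The branched-chain amino acids leucine, isoleucine and valine share the branched-chain ketoacid dehydrogenase, and leucine then passes through Ivd and the methylcrotonyl-CoA carboxylase. Ivd, the isovaleryl-CoA dehydrogenase, was lower on days 1 and 14. It had 11.13, 11.38, 11.16 and 11.20 in rotenone livers of day 1, against 12.33, 12.16, 12.03 and 12.39 in control livers (2.01-fold lower, -1.01 ± 0.13, adjusted p = 6.75e-05). On day 14 it had 11.77, 11.83, 11.33 and 11.52 in rotenone livers and 12.33, 12.51, 11.88 and 12.45 in control livers (1.6-fold lower, -0.68 ± 0.13, adjusted p = 0.0033). The groups were apart on both days, while on day 3 they overlapped (11.79 ± 0.15 in rotenone and 11.95 ± 0.09 in control livers, SD, n = 4 each) and the difference of -0.16 ± 0.13 did not pass. Mccc2, the beta subunit of the carboxylase, had 9.94, 10.20, 10.23 and 10.11 in rotenone livers of day 1, against 10.99, 10.66, 10.72 and 10.85 in control livers (1.61-fold lower, -0.68 ± 0.12, adjusted p = 0.00128). Its partner Mccc1 differed by -0.28 ± 0.11 on day 1, with overlap, and did not pass on any day.

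The subunits of the ketoacid dehydrogenase were called on different days. Bckdhb, the E1 beta subunit, had 11.59, 11.56, 11.46 and 11.76 in rotenone livers of day 1, against 12.41, 12.35, 12.59 and 12.70 in control livers (1.89-fold lower, -0.92 ± 0.18, adjusted p = 0.00287). Bckdha, the E1 alpha subunit, had 7.86, 7.90, 7.89 and 7.96 in rotenone livers of day 1 and 8.33, 8.01, 8.29 and 7.96 in control livers, where the difference of -0.24 ± 0.10 did not pass. It did not pass on day 3 either, although the rotenone livers (8.32 to 8.45) lay above the control livers (8.05 to 8.15). On day 14 Bckdha had 8.47, 8.83, 8.47 and 8.38 in rotenone livers, against 8.23, 8.05, 8.00 and 8.07 in control livers (1.37-fold higher, 0.45 ± 0.10, adjusted p = 0.00999). Pcca, the alpha subunit of the propionyl-CoA carboxylase that receives carbon of isoleucine, valine and methionine, was up-regulated on days 3 and 14. Its values were 13.36, 13.36, 13.29 and 12.96 in rotenone livers of day 3, against 12.61, 12.83, 12.48 and 12.42 in control livers (1.58-fold higher, 0.66 ± 0.16, adjusted p = 0.0176). On day 14 they were 13.47, 13.61, 13.47 and 13.44 in rotenone livers and 12.42, 13.15, 12.99 and 12.85 in control livers (1.56-fold higher, 0.65 ± 0.16, adjusted p = 0.016). Its partner Pccb differed by 0.02, 0.04 and 0.02, with 95% confidence intervals that ran from -0.19 to 0.25 in all. Bcat2, the mitochondrial branched-chain aminotransferase, stayed near the background level on every array, at 5.28 to 5.57 in rotenone livers and 5.41 to 5.76 in control livers. Aass, the first enzyme of lysine breakdown in mitochondria, differed by -0.60 ± 0.22, 0.29 ± 0.22 and 0.46 ± 0.22 and did not pass.

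**Figure D5:**
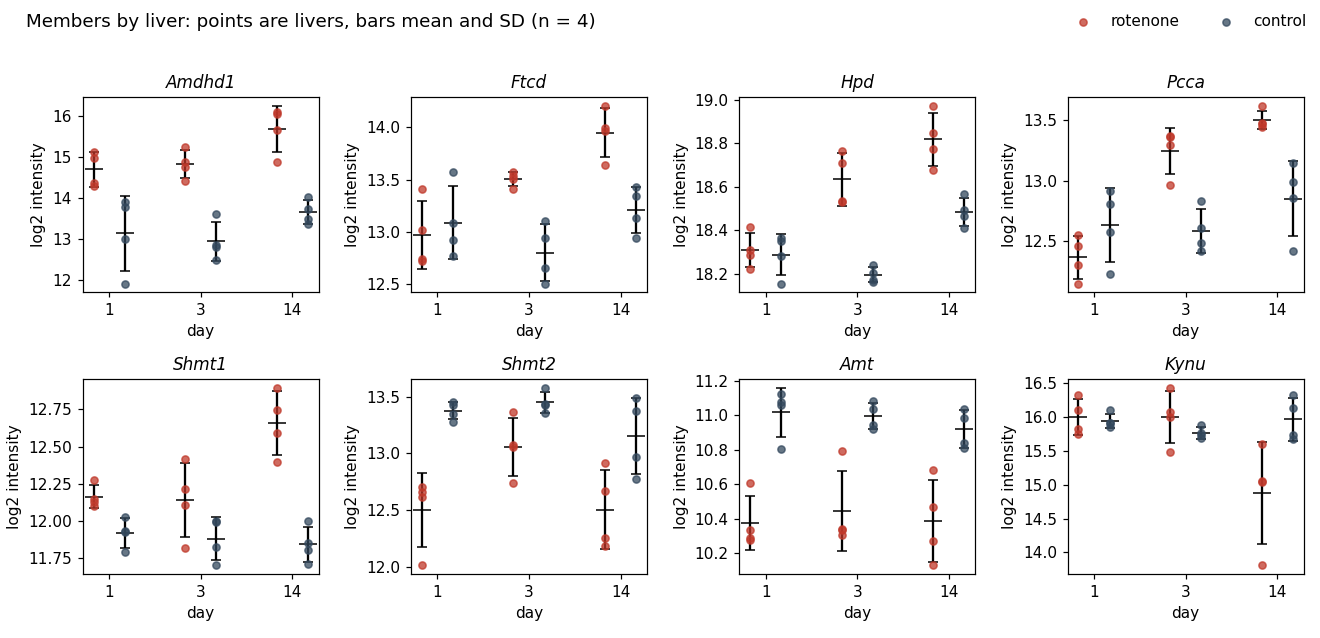
Log2 intensity of every liver on days 1, 3 and 14 for Amdhd1, Ftcd, Hpd, Pcca, Shmt1, Shmt2, Amt and Kynu, rotenone beside control, with mean and SD (n = 4). Amdhd1 is higher and Amt lower in rotenone livers on every day, and Kynu is apart on day 14 (13.81 to 15.61 in rotenone livers, 15.67 to 16.33 in control livers).

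Whether the effect of rotenone itself changed with time was tested with a moderated F over the 3 days, which 1.41% of all genes passed. Of the 44 genes 6 passed, namely Thnsl2 (adjusted p = 0.000866), Aldh4a1 (0.001), Cth (0.00434), Mccc2 (0.0229), Bckdha (0.0437) and Prodh (0.0461). Without replicate 1 of the day 1 control livers or replicate 1 of the day 1 rotenone livers 3 passed. The effect on day 3 exceeded that on day 1 by 1.87 ± 0.26 for Thnsl2, 1.36 ± 0.22 for Cth and 1.31 ± 0.17 for Aldh4a1, 3 genes of the 44, against 0.127% of all genes. The effect on day 14 exceeded that on day 1 in 6 genes, against 1.24% of all genes. These were Thnsl2 (1.82 ± 0.26), Cth (1.32 ± 0.22), Aldh4a1 (1.12 ± 0.17), Pcca (0.91 ± 0.22), Mccc2 (0.87 ± 0.17) and Bckdha (0.69 ± 0.14), and no gene of the set changed the other way. Across the set, 43 of the 44 genes (97.7%) had a higher effect on day 3 than on day 1, Cbs being the exception, against 57.7% of all genes. For day 14 over day 1 it was 38 of 44 (86.4%), against 57.6%. The median difference of the effect was 0.50 in both, against 0.04 over all genes, and both rest on the same livers of day 1. Between days 14 and 3, limma called 0 of the 44 genes (6 at an unadjusted p under 0.05) and 0.0317% of all genes. In control livers 0 of the 44 genes differed between day 14 and day 1 (1 at an unadjusted p under 0.05), against 0.177% of all genes, and 0 between day 3 and day 1 (2 unadjusted), where 0% of all genes passed.

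Of 42 further enzymes of amino acid breakdown outside the set, 38 were found. On day 1 there were 13 lower and 0 higher, on day 3 there were 1 lower and 5 higher, and on day 14 there were 1 lower and 8 higher, with median differences of -0.21, 0.08 and -0.01. Of all genes, 3.73% were lower and 5.69% higher on day 1, 3.11% and 3.53% on day 3, and 3.33% and 5.98% on day 14. The largest falls of day 1 were Afmid (-1.44 ± 0.28), the formamidase after Tdo2, Abat (-1.37 ± 0.15), the aminotransferase of gamma-aminobutyrate, and Qdpr (-1.10 ± 0.21), which recycles the cofactor of phenylalanine hydroxylase. On day 3 the largest rises were Hykk (2.05 ± 0.32), the hydroxylysine kinase, Gls2 (0.83 ± 0.17), the liver glutaminase, and Hoga1 (0.76 ± 0.11), which ends hydroxyproline breakdown, and Dld (-0.42 ± 0.10), a subunit shared by the ketoacid dehydrogenases and glycine cleavage, was lower. On day 14 they were Acmsd (1.81 ± 0.51), which diverts tryptophan carbon from NAD synthesis, Hykk (1.22 ± 0.32) and Hibch (0.93 ± 0.12), a hydrolase of valine breakdown, while Acad8 (-0.52 ± 0.15), another enzyme of valine, was lower.

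Of 26 listed genes around the methyl donors and folate, 24 were found. On day 1, 5 were lower and 3 higher, on day 3 there were 2 each way, and on day 14, 4 were lower and 5 higher. Over all genes, 3.73% were lower and 5.69% higher on day 1, 3.11% and 3.53% on day 3, and 3.33% and 5.98% on day 14. Amd1, which commits S-adenosylmethionine to polyamines, was higher on every day (0.87 ± 0.17, 0.89 ± 0.17 and 1.43 ± 0.17). Mat2a, the other catalytic methionine adenosyltransferase, was higher on day 1 (0.93 ± 0.13), as was Ahcyl1 (0.46 ± 0.10), a relative of Ahcy. The largest falls of day 1 were Aldh1l1 (-1.80 ± 0.25), the cytosolic formyltetrahydrofolate dehydrogenase, Sardh (-1.51 ± 0.18), the sarcosine dehydrogenase that follows Gnmt, and Chdh (-1.32 ± 0.14), which makes betaine for Bhmt. Later Pipox, a sarcosine oxidase, was higher (0.89 ± 0.17 on day 3 and 0.67 ± 0.17 on day 14), and Mthfd1, a folate enzyme of the cytosol, was 3.6-fold higher on day 14 (1.85 ± 0.27). Aldh1l2, the mitochondrial counterpart of Aldh1l1, was lower on day 3 (-1.46 ± 0.31) and day 14 (-2.24 ± 0.31), Gatm, which uses glycine for creatine, was lower on the same days (-0.76 ± 0.13 and -0.55 ± 0.13), and Dmgdh, the dehydrogenase before Sardh, was lower on day 14 (-0.93 ± 0.24).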

How the data were processed

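Total liver RNA of 24 rats was hybridised to the Rat Transcriptome Array 1.0, 1 array per liver. Per the study's methods, the authors corrected the scans for the base content of the probes (Guanine Cytosine Count Normalization), applied Signal Space Transformation, and summarised the probes of each transcript cluster to an intensity with RMA. Software versions are not given in the sources used here. The deposited intensity values were linear, and 1 was added before log2 was taken.

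Of 70580 features, 1738 control probe sets were left out. Of the other 68842 clusters, 23446 carried 1 gene symbol, 505 several and 44891 none, and only those with 1 symbol were named, from the platform annotation. Such annotation can be old. No filter on low values was applied. A model with 6 group means was fitted to all clusters with limma 3.58.1 in R 4.3.3, two-sided, with Benjamini-Hochberg adjustment over all clusters, and tested on simulated data. Animals were treated as independent. The design, a diet by day structure, followed the study's methods, whose filter on analysis of variance, Kruskal-Wallis test and a ratio of 1.8 was run as an alternative. The methods do not state how the parts of this filter were joined. Here a gene had to pass the treatment or the interaction term, the Kruskal-Wallis test and the ratio, and the time term was left out. Values of every liver were given for called genes, the largest changes of each day first, and other genes by range and count. Values of every liver of Sds, Gpt, Shmt2, Bhmt, Bckdhb and Mat1a and of Hpd on day 14 were added after they had been seen. Wider lists, written from general knowledge, held 222 entries, of which 209 were found, and up to 3 rises and 3 falls were named per list and day. The members and lists were chosen with earlier results of these data known. Promoters were searched with Python 3.11.15.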

Additional observations from a re-analysis of the deposited data

Results flagged for a closer look

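In 7 of 264 groups of 4 livers (44 genes in 6 groups), 1 liver stood far from the other 3, where chance alone flags about 1 in 20 groups. In rotenone livers these were Shmt2 in replicate 1 of day 1 (12.02, the others 12.62 to 12.71), Amt in replicate 3 of day 3 (10.79, the others 10.30 to 10.34) and Bhmt in replicate 4 of day 3 (19.05, the others 19.41 to 19.47). In control livers they were Got1 in replicate 4 of day 1 (12.26, the others 11.76 to 11.83), Got2 in replicate 2 of day 3 (14.69, the others 14.54 to 14.56), Got2 in replicate 3 of day 14 (14.32, the others 14.49 to 14.50) and Hgd in the same liver (15.16, the others 15.69 to 15.77).

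The effect of rotenone differed among the 3 days for 6 genes by the moderated F of limma, with adjusted p of 0.000866 for Thnsl2, 0.00100 for Aldh4a1, 0.00434 for Cth, 0.0229 for Mccc2, 0.0437 for Bckdha and 0.0461 for Prodh. Day 3 minus day 1 gave a difference of the effect of 1.87 for Thnsl2, 1.36 for Cth and 1.31 for Aldh4a1. Day 14 minus day 1 gave 1.82 for Thnsl2, 1.32 for Cth, 1.12 for Aldh4a1, 0.91 for Pcca, 0.87 for Mccc2 and 0.69 for Bckdha.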

How the results depend on the processing

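No call changed direction under any alternative. Of the day 1 calls, Thnsl2, Aldh4a1, Ivd, Cth, Bhmt, Mccc2, Bckdhb, Shmt2 and Amt held in all 34 alternative fits, in which samples, scaling, filter or model were changed but the call rule was kept, as did Amdhd1 on days 3 and 14 and Shmt1 on day 14. Gnmt was lost in 24 and Tdo2 in 20 of 34, with adjusted p up to 0.192 and 0.143. Of the other calls of day 1, Prodh was lost in 3 and Amdhd1 in 1. Of those of day 3, Gpt was lost in 6, Ftcd in 5, Pcca in 4, Amt in 3 and Hpd in 1. On day 14 Shmt2 was lost in 8, Gpt2 in 6, Hpd in 5, and Amt and Mat1a in 4 each. Kynu and Pcca were lost in 3 each on that day, Ftcd and Bckdha in 2 each and Ivd in 1. When only the 8 arrays of a day were fitted, 3 genes were higher and 0 lower on day 3, and 4 higher and 0 lower on day 14, and Amdhd1 was not called on day 1 (adjusted p = 0.0868). That fit called Got1 as higher on day 1 instead (adjusted p = 0.0165). Some settings added calls. With a pseudocount of 16, or with only clusters at or above the median mean, 14 genes were lower on day 1, with Kmo, Fah and Got2 added. With only those brighter clusters, 10 genes were higher and 6 lower on day 14. Kmo passed on day 1 in 9 of 34 alternative fits. Stricter call rules took away some of the calls of the main fit. With at least 1.8-fold beside the adjusted p, 8 were lower on day 1, without Amt, Bhmt and Mccc2, 2 were higher and 0 lower on day 3, and 2 higher and 1 lower on day 14, without Shmt1. The filter after the study's methods, joined as chosen here, left 4 lower on day 1, without Amt, Shmt2, Gnmt, Bhmt, Prodh, Bckdhb and Mccc2. It left 1 higher and 0 lower on day 3, and 1 higher and 0 lower on day 14, where Amdhd1 alone remained. With each array centred on its median, 3 genes had an effect that differed among days. The causes were not tested.

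Leaving out 1 liver at a time gave 1 to 1 higher and 9 to 12 lower genes on day 1, 2 to 7 higher and 0 to 1 lower on day 3, 2 to 9 higher and 2 to 7 lower on day 14, 3 to 8 with an effect that differed among days, and 0 to 0 that differed between control livers of days 14 and 1. Without replicate 1 of rotenone day 14, Bhmt, Oat and Bckdhb joined the lower genes of day 14.

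Replicate numbers were not used as pairs in the main fit. The correlations of same-numbered livers lay between -0.11 and 0.17, but differently numbered livers were not compared, so this check cannot exclude pairing. With the number as a replicate block, 1 gene was higher and 10 lower on day 1, 6 higher and 1 lower on day 3, and 9 higher and 3 lower on day 14. An effect that differed among days was found for 4 genes, and 0 differed between control livers of days 14 and 1. The block lost Gnmt on day 1, Shmt2 on day 14 and, among days, Prodh and Bckdha, and it added Sds on day 3.

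Bcat2 lay near the background and Bhmt near the top of the scale. Whether differences are compressed at these levels was not tested.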

Other observations

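Carriers that bring amino acids into or out of cells were called in part. All 18 listed were found, with 4 higher and 2 lower on day 1, 5 higher and 0 lower on day 3, and 5 higher and 2 lower on day 14. Among all genes, 5.69% were higher and 3.73% lower on day 1, 3.53% and 3.11% on day 3, and 5.98% and 3.33% on day 14. Slc16a10, a carrier of aromatic amino acids, was higher on every day (3.28-fold, 5.17-fold and 3.49-fold). On day 1 the neutral carrier Slc1a4 (1.16 ± 0.30) and Slc3a2 (1.03 ± 0.13), the heavy chain of several carriers, were higher, and Slc43a1 (-0.72 ± 0.19) and Slc3a1 (-0.55 ± 0.16) were lower. Slc1a2, a glutamate carrier that was also on the list of pericentral markers, was higher on day 3 (1.71 ± 0.41) and day 14 (2.17 ± 0.41). Slc7a2, a carrier of basic amino acids, was higher on day 3 (0.78 ± 0.21). On day 14 Slc7a5 (1.94 ± 0.29), which carries large neutral amino acids with Slc3a2, was higher, and Slc43a1 (-0.90 ± 0.19) and Slc7a8 (-0.46 ± 0.13) were lower.

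Of 20 listed regulators of amino acid breakdown and genes that follow glucagon, glucocorticoids or fasting, 19 were found. On day 1, 2 were higher and 3 lower, on day 3 there were 2 each way, and on day 14 there was 1 each way. Across all genes, 5.69% were higher and 3.73% lower on day 1, 3.53% and 3.11% on day 3, and 5.98% and 3.33% on day 14. Creb3l3, a liver transcription factor of fasting, was higher on day 1 (1.51 ± 0.17) and day 3 (0.77 ± 0.17), and Crtc2, a coactivator of CREB, on day 1 (0.56 ± 0.10). Ppargc1a, a coactivator of gluconeogenic and mitochondrial genes, was higher on day 3 (1.31 ± 0.36) and day 14 (1.97 ± 0.36). Gcgr, the glucagon receptor, was lower on day 1 (-0.82 ± 0.12) and day 3 (-0.51 ± 0.12), as was Nr3c1, the glucocorticoid receptor (-0.76 ± 0.17 and -0.75 ± 0.17). Cebpa was lower on day 1 (-0.77 ± 0.18), and G6pc1, the glucose-6-phosphatase, on day 14 (-2.36 ± 0.60).

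Hepatocytes near the portal vein and near the central vein differ in amino acid use. Of 12 periportal genes 1 was higher and 0 lower on day 1, 1 each way on day 3, and 2 higher and 3 lower on day 14. Of the 11 pericentral genes found, 1 was higher and 3 lower on day 1, 4 higher and 2 lower on day 3, and 5 higher and 2 lower on day 14. The list of lymphocyte markers counted 1 higher and 0 lower on day 1 and none later, and that of bile duct cells 1 higher on day 14 and none before. Over all genes, 5.69% were higher and 3.73% lower on day 1, 3.53% and 3.11% on day 3, and 5.98% and 3.33% on day 14. Single calls in lists this short are not read as a result of the list.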
